A study of Mus musculus with 2 samples.

Results

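Semaphorins are ligands that steer the movement and adhesion of cells, and plexins and neuropilins are their receptors. The members described here were taken by symbol from the authors' deposited comparison of a wild-type and a Dicer-deficient mouse cell line: genes of semaphorin classes 3 to 7, of the plexin family, and Nrp1 and Nrp2. This gave 31 of 23227 symbols, of which 20 encode ligands and 11 encode receptors. No measured value entered the choice of symbols, but the family was put forward with the values of this comparison known. All differences between the lines are therefore given as a description, and the authors' p-values are quoted as deposited.

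PolyA-selected RNA was sequenced from monoclonal, immortalised lines of murine adult mesenchymal stem cells, which the labels also call fibroblasts. The wild-type line (WT) carries Dicer f/f, that is, Dicer alleles flanked by recombination sites and still intact, and the knockout line (KO) is Dicer -/-. Dicer cuts precursor hairpins into mature microRNAs, which in turn repress messenger RNAs through short matches in their 3′ untranslated regions (3′ UTRs). No treatment, time or animal age is given in the labels, and both lines were grown in alpha-MEM with 10% fetal bovine serum and lysed before confluence. Each genotype is 1 clonal line with 1 labelled sample, so the loss of Dicer and any other difference between the clones cannot be told apart. The deposited means per genotype were found to be averages over 2 libraries whose whole read numbers could be recovered. They are called the deeper and the shallower library after their totals. The labels do not say how these libraries relate, so their spread may be technical. Values are mean normalised reads per genotype, and brackets after a mean hold the deeper library first and the shallower one second.

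Plexins carry the signal across the membrane and act inside the cell on small GTPases of the R-Ras and Rap families. Most secreted semaphorins need a neuropilin to bind and a plexin to signal, while membrane-bound semaphorins mostly bind plexins directly. The family was first known for guiding axons, and its members also act on blood vessels, on immune cells and in bone, where Sema3a and Sema4d are known to influence the balance between bone-forming and bone-resorbing cells.

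The 4 recovered libraries held between 14135422 and 15718369 reads in genes. The targeted gene Dicer1 had 873 normalised reads in WT (804 and 943) and 565 in KO (573 and 557), a value over the whole gene that does not isolate the deleted part. Of 13 mesenchymal markers, 12 had at least 20 normalised reads on average. Thy1, a surface marker of mesenchymal stem cells, had no reads in any library. The mesenchymal sums were 166502 and 192911 in the WT libraries and 105770 and 129145 in the KO libraries. Of the 12 markers, 6 had a higher mean in KO and 6 a lower one. Col1a1 (41238 in WT and 17828 in KO) and Col1a2 (77682 and 37792) were among the lower. Col3a1 (3112 and 17363) was among the higher. Markers of other cell types were low. The 8 endothelial markers summed to between 19.1 and 25.9 normalised reads per library, with Cldn5 at 0. The 8 haematopoietic markers summed to between 29.9 and 53.7, with Cd3e and Gata1 at 0. The 5 Schwann and glial markers summed to between 17.9 and 48.2, with Sox10 at 0, and the 7 epithelial markers to between 16.4 and 71.8, with Epcam and Cldn4 at 0. The 8 neuronal markers summed to 428 and 358 in the WT libraries and to 50.6 and 41.8 in the KO libraries, with Rbfox3, Elavl4 and Nefl at 0. That difference came from the microtubule gene Mtap2 (Map2), at 362 in WT and 5.10 in KO.

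Only genes averaging 20 or more normalised reads across the lines are called tested. A tested gene counted as higher in KO from a KO over WT ratio of 2 upwards, and as lower from 0.5 downwards, provided that the 95% exact (Clopper-Pearson) interval of that ratio excluded 1. These intervals cover counting error only. Of the 31 members, 24 were tested, and of these 8 were higher in KO, 3 were lower and 13 were neither. Over all 11710 tested genes, 8.92% were higher and 8.56% were lower. The authors' deposited table, read at an adjusted p of 0.1, placed 6 tested members higher and 2 lower, where it placed 5.56% and 5.34% of all tested genes. Of the tested members, 3 passed the minimum only through the genotype in which they were high (Sema3g, Sema4d and Sema6d). Such genes had to differ, so the counts are not a measure of how often members of the family differ.

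More ligands than receptors passed the 2-fold rule. Of 16 tested ligands, 7 were higher in KO, 2 were lower and 7 reached neither limit. Their median log2 ratio was 0.73. The 3 members that had to differ in order to be tested were all ligands, with Sema3g and Sema4d among the higher and Sema6d among the lower. The ligand counts and median therefore rest in part on the minimum, while no tested receptor entered in that way. The 8 tested receptors comprised 1 higher gene, 1 lower gene and 6 that reached neither limit, and their median log2 ratio was 0.16. The median over all tested genes was -0.01. The ligand median stayed between 0.69 and 0.92 when each library was left out in turn. Leaving out the shallower WT library gave a receptor median of -0.29, leaving out the deeper KO library gave -0.23, and leaving out the deeper WT library gave 0.63, so its sign rests on single libraries. Whether ligands and receptors differ from each other was not tested. In bulk RNA, fewer cells expressing a gene and less RNA per cell cannot be told apart.

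**Figure D1:**
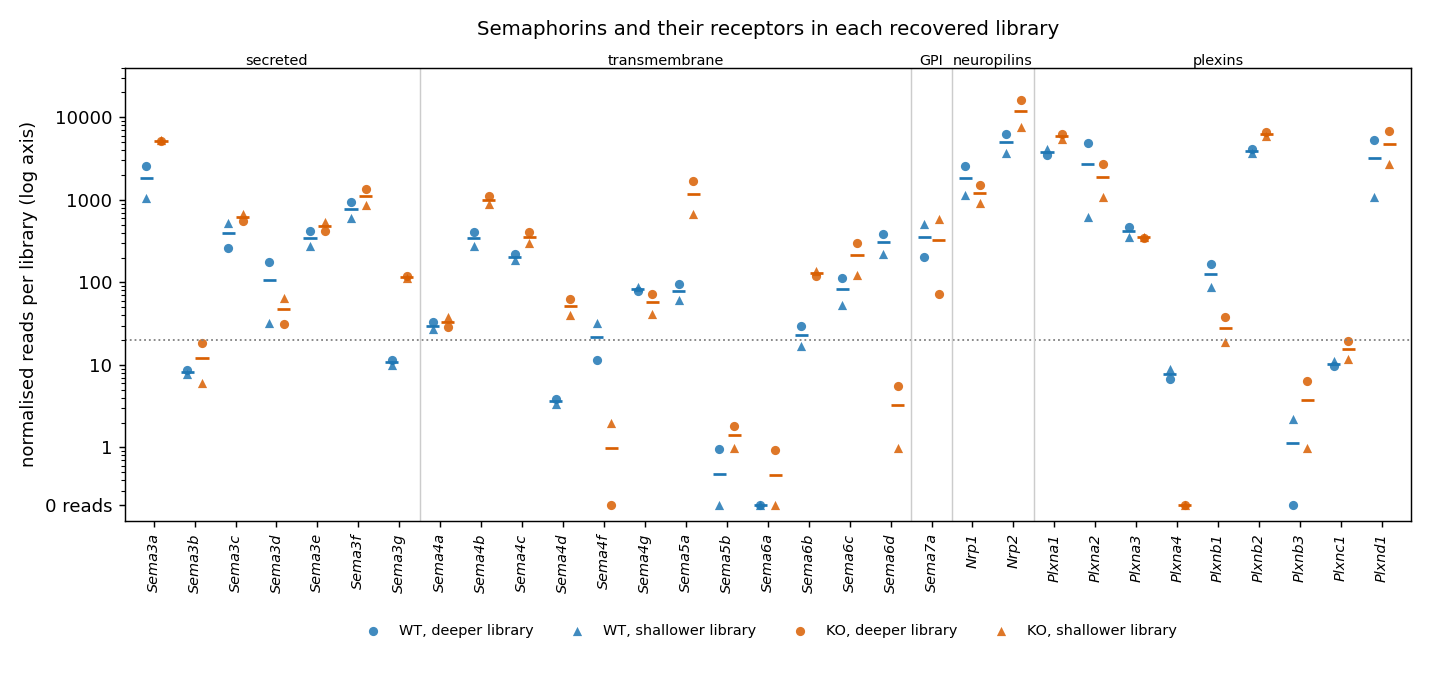
Normalised reads of all 31 members in each recovered library (log axis, genes with no reads drawn at the bottom), with WT in blue, KO in orange, circles for the deeper and triangles for the shallower library, and bars for the genotype mean. The dotted line marks the minimum of 20 normalised reads, and the widest gaps among the 24 tested members are those of Sema6d, Sema5a, Sema4d and Sema3g. Among the members whose mean over both genotypes is under that minimum, Sema4f and Plxna4 are also far apart.

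The secreted semaphorins are the class that signals through neuropilins. Of its 7 members, 6 were tested. Sema3a, the founding repellent of axons, had 1828 normalised reads in WT (2592 and 1064) and 5219 in KO (5143 and 5295). The KO values both exceeded those of WT, and the KO libraries nearly coincided while the WT libraries were 2.44-fold apart. The ratio was 2.85 (counting interval 2.75 to 2.96), and the authors' deposited table gives an adjusted p of 0.00113. Leaving out the deeper WT library gave a ratio of 4.91, and leaving out the shallower one gave 2.01. In pairs of like depth the Sema3a ratio was 1.98 in the deeper pair, just short of 2-fold, and 4.98 in the shallower pair.

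Sema3g, a ligand of Nrp2 known from blood vessels, had 10.8 normalised reads in WT (11.6 and 10.1) and 117 in KO (121 and 112). The libraries of each genotype lay close together and far from those of the other. The ratio was 10.8 (6.91 to 17.8), and it lay between 10.1 and 11.6 whichever library was left out (the authors' deposited table gives an adjusted p of 5.07e-06). The endothelial markers summed to between 19.1 and 25.9 in every library, and single markers went both ways at a few reads each. Pecam1 (2.01 in WT and 6.82 in KO) and Emcn (0 and 2.83) had higher means in KO, while Esam (4.73 and 0.995) and Tie1 (1.45 and 0) had lower ones. Their part in the Sema3g difference was not tested.

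Sema3d went by its mean in the other direction, but its libraries disagreed. It had 106 normalised reads in WT (179 and 32.5) and 48.0 in KO (31.3 and 64.7). The genotypes overlapped, since the shallower WT library lay between both KO libraries. The ratio of means was 0.453 (0.353 to 0.577), and the authors' deposited table gives an adjusted p of 0.986. Leaving out the shallower library gave 0.268 (WT) or 0.295 (KO), leaving out the deeper KO library gave 0.611, and leaving out the deeper WT library gave 1.48, so the direction rests on the deeper WT library.

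The other tested secreted ligands reached neither limit, and each had a mean higher in KO. Sema3c, a guidance cue of the developing heart and vessels, had 393 normalised reads in WT (264 and 522) and 615 in KO (558 and 672), a ratio of 1.56. Its KO libraries both lay above its WT libraries, and the ratio reached 2.33 without the shallower WT library. Sema3e, which binds Plxnd1 without a neuropilin, had a ratio of 1.39, with 345 in WT (417 and 274) and 481 in KO (418 and 544). Sema3f, a ligand of Nrp2, had 765 normalised reads in WT (935 and 595) and 1101 in KO (1348 and 855). The Sema3f libraries of the genotypes overlapped, while the ratio was 1.44 in the deeper pair of libraries and 1.44 in the shallower pair. The genes Sema3d, Sema3a, Sema3e and Sema3c lie in this order on chromosome 5, with 0, 3 and 15 protein-coding genes between neighbours in the RefSeq annotation of GRCm38.p6, and their ratios ran from 0.453 to 2.85.

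The transmembrane semaphorins held the largest differences in both directions. Of 12 members, 9 were tested, with 5 higher in KO, 1 lower and 3 neither. Sema5a, whose extracellular part carries thrombospondin repeats, had 78.5 normalised reads in WT (95.4 and 61.7) and 1175 in KO (1672 and 679). Even the lower KO library was several times above the higher WT library. The ratio was 15 (12.7 to 17.7), and leaving out the deeper KO library gave 8.64. The authors' deposited table lists it with an adjusted p of 0.0550.

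Sema4d, a ligand of Plxnb1 also known as CD100 on lymphocytes, had 3.61 normalised reads in WT (3.86 and 3.36) and 51.2 in KO (62.5 and 39.8). Its ratio was 14.2 with a wide interval from 6.65 to 36.1, because only 7 WT reads stand behind it (the authors' deposited table gives an adjusted p of 9.42e-04). The T lymphocyte marker Cd3e was at 0 in every library. Sema4d is the tested member nearest the minimum, with a mean of 27.4 normalised reads over both genotypes, and Plxnc1, at 13, is the nearest below it.

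Sema6b and Sema6c, transmembrane ligands of class A plexins, were also higher in KO. Sema6b had 23.3 normalised reads in WT (29.9 and 16.8) and 129 in KO (119 and 139), a ratio of 5.52 (4.03 to 7.73). The authors' deposited table gives Sema6b an adjusted p of 6.29e-04. Sema6c had 82.8 in WT (112 and 53.8) and 214 in KO (304 and 124), a ratio of 2.59 (2.16 to 3.11). The Sema6c libraries of a genotype were over 2-fold apart in WT and in KO, its lower KO library lay just above its higher WT library, and the authors' deposited table gives an adjusted p of 0.655. With the shallower WT library left out the ratio was 1.92, leaving out the deeper KO library gave 1.5, and leaving out the deeper WT library gave 3.98. Comparing libraries of like depth, Sema6c was 2.72-fold higher in the deeper and 2.31-fold higher in the shallower pair.

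Sema4b had 346 normalised reads in WT (413 and 279) and 1006 in KO (1125 and 887). The KO libraries lay above the WT libraries by more than the spread within either genotype. The ratio was 2.91 (2.67 to 3.18), and it lay between 2.44 and 3.60 whichever library was left out (the authors' deposited table gives an adjusted p of 0.00152). Sema4c, a ligand of Plxnb2, had 202 in WT (219 and 185) and 353 in KO (409 and 298). Its ratio of 1.75 is the highest among members short of 2-fold, and it reached 2.03 without the shallower KO library.

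Sema6d went the opposite way and was nearly lost in KO. It had 305 normalised reads in WT (388 and 222) and 3.26 in KO (5.52 and 0.995, 7 reads in all). The ratio was 0.0107 (0.00427 to 0.0221), that is, 93.7-fold lower. The authors' deposited table gives an adjusted p of 9.99e-08. It was 0.00326 without the deeper and 0.0181 without the shallower KO library. Of the neuronal markers, 2 were tested. Mtap2 was nearly lost in KO as well, and Tubb3 had a higher mean there, with 23.2 normalised reads in WT (10.6 and 35.9) and 37.3 in KO (36.8 and 37.8). Rbfox3 was at 0 throughout, and the part of other cells in the Sema6d difference was not tested.

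Sema4a and Sema4g reached neither limit. Sema4a, known from immune cells and the retina, had a ratio of 1.11 with overlapping libraries. Sema4g had 83.3 normalised reads in WT (78.1 and 88.6) and 57.2 in KO (72.7 and 41.8), a ratio of 0.687. Its KO libraries both lay below its WT libraries, by little in the deeper pair (ratio 0.931) and by more in the shallower pair (0.472).

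Sema7a is the only member held in the membrane by a lipid (GPI) anchor, and it signals through integrins and Plxnc1. Its means were alike, with 352 normalised reads in WT and 327 in KO and a ratio of 0.928 (0.832 to 1.03). The libraries behind them were not: 201 and 503 in WT, and 71.7 and 582 in KO. The shallower library was the higher one in each genotype, by 2.50-fold in WT and by 8.11-fold in KO. Leaving out the shallower KO library gave a ratio of 0.204, and leaving out the deeper one gave 1.65. In WT, leaving out the deeper library gave 0.649 and leaving out the shallower one gave 1.62.

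**Figure D2:**
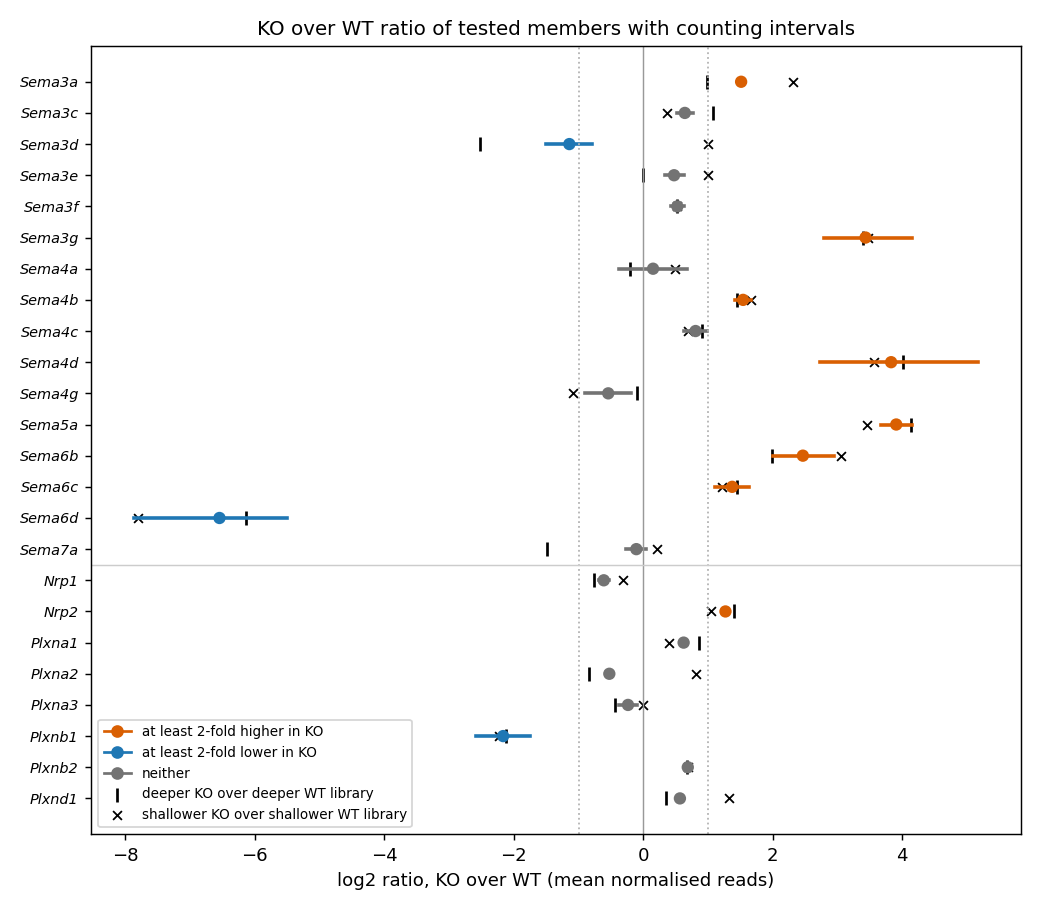
Log2 ratio of KO over WT for the 24 tested members (points) with their counting intervals (bars), ligands above the grey line and receptors below it; black marks give the ratio within the deeper and within the shallower pair of libraries, and dotted lines mark 2-fold. Sema5a, Sema4d and Sema3g lie over 3 log2 units above 0 and Sema6d over 6 below, while the pairs fall on opposite sides of 0 for Sema3d, Sema4a, Sema7a and Plxna2.

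The neuropilins, which bind secreted semaphorins and also VEGF, differed from each other. Nrp2 had 4996 normalised reads in WT (6249 and 3742) and 12063 in KO (16415 and 7711). The KO values both exceeded those of WT, but the libraries of a genotype were 1.67-fold apart in WT and 2.13-fold apart in KO. The ratio was 2.41 (2.36 to 2.47), the lowest among the members counted as higher, and the authors' deposited table gives an adjusted p of 0.556. Leaving out the shallower WT library gave 1.93 and leaving out the deeper KO library gave 1.54, both short of 2-fold, while the ratio was 2.63 and 2.06 in the deeper and the shallower pair.

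Nrp1 had 1839 normalised reads in WT (2536 and 1142) and 1205 in KO (1492 and 917). The genotypes overlapped, and the ratio was 0.655 (0.622 to 0.689). The ratio became 0.475 on leaving out the shallower WT library, leaving out the deeper KO library gave 0.499, and leaving out the deeper WT library gave 1.05. The KO library was the lower one in each pair of like depth, with ratios of 0.588 and 0.803, where those of Nrp2 were above 2. The difference between both neuropilins was not tested.

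Among 9 plexins, 6 were tested, and 1 of them passed the 2-fold rule. Plxnb1, a receptor of Sema4d, had 127 normalised reads in WT (165 and 88.6) and 28.3 in KO (37.7 and 18.9). The KO values were both well under those of WT. The ratio was 0.223 (0.166 to 0.297), or 4.48-fold lower, and it was 0.229 and 0.213 in the deeper and the shallower pair (the authors' deposited table gives an adjusted p of 0.0782). Sema4d and Plxnb1, a ligand and a receptor that binds it, thus had ratios on opposite sides of 1. The other tested class B plexin, Plxnb2, had a ratio of 1.61.

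Plxna1 and Plxnb2 were moderately higher in KO with little spread. Plxna1, a partner of neuropilins, had 3824 normalised reads in WT (3463 and 4185) and 5903 in KO (6279 and 5528), a ratio of 1.54. Plxnb2, a receptor of Sema4c, had 3879 in WT (4100 and 3658) and 6226 in KO (6553 and 5899), a ratio of 1.61. In both genes the KO libraries lay above the WT libraries, but neither reached 2-fold, and the authors' deposited table gives adjusted p of 0.405 and 0.347.

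Plxna2, a partner of neuropilins, and Plxnd1, the receptor of Sema3e, had libraries that differed more within a genotype than their means did between genotypes. Plxna2 had 2738 normalised reads in WT (4859 and 617) and 1903 in KO (2728 and 1079). Its ratio of means was 0.695, with 0.561 in the deeper pair and 1.75 in the shallower pair. Leaving out the shallower WT or the deeper KO library gave 0.392 or 0.394, and leaving out the deeper WT library gave 3.09. Plxnd1 had 3201 in WT (5317 and 1085) and 4738 in KO (6750 and 2726), a ratio of 1.48 that was 0.891 and 0.851 without the shallower WT and the deeper KO library, 4.37 without the deeper WT library and 2.11 without the shallower KO library. Plxna3 had a ratio of 0.849, with 414 in WT (471 and 358) and 352 in KO (349 and 355).

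The other 7 members stayed under the minimum of 20 normalised reads. Sema4f had 22.0 in WT (11.6 and 32.5) and 0.995 in KO (2 reads in the shallower library), a ratio of 0.0452 (0.00529 to 0.174), and the authors' deposited table gives an adjusted p of 0.142. The Sema4f ratio was 0.0860 without the shallower WT library and 0.0903 without the deeper KO library. Both KO reads come from the shallower library, so none remains when it is left out. Plxna4, the partner of neuropilins in neurons, had 7.86 in WT (6.75 and 8.97) while no read was found in KO. With 3 reads taken as the floor for the KO libraries together, the difference would be 5.47-fold. The counting interval of the ratio, which also covers the WT reads, runs from 0 to 0.255. In each of these genes every KO library was under every WT library, and both counted as lower when no minimum was set. Sema3b (8.26 and 12.2), Plxnc1 (10.4 and 15.6) and Plxnb3 (1.12 and 3.72) were low in WT and KO, with intervals that included 1. Sema5b had 4 reads and Sema6a 1 read over all libraries, so their difference was not detectable at this depth.

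The libraries of the genotypes did not overlap for 17 of the 24 tested members, 13 with the KO values on top and 4 with the WT values on top. The same held for 30.4% and 28.8% of all tested genes. Libraries of like depth differed in opposite directions for 4 members (Sema3d, Sema4a, Sema7a and Plxna2) and for 19.1% of all tested genes. limma on log2(normalised reads + 1) of the 4 recovered libraries, at an adjusted p of 0.05 over all tested genes, placed 5 members higher (Sema3g, Sema4b, Sema4d, Sema5a and Sema6b) and 1 lower (Sema6d), with 4.61% and 4.14% over all tested genes. Sema3a, Plxnb1, Nrp2 and Sema6c had adjusted p = 0.0888, 0.0761, 0.167 and 0.221 in limma. With libraries of like depth sharing a block, a fit chosen after seeing the data, these became 0.0143, 0.00561, 0.00438 and 0.0101. That limma fit also placed Sema3c, Sema3f, Sema4c, Plxna1, Plxnb2 and Plxnd1 higher and Nrp1 lower, for 14 higher and 3 lower members in all, with 18.5% and 17.7% over all tested genes. Sema3g, Sema4d and Sema6d had to differ in order to be tested. They are among the members without overlap and among those called by both limma fits. The counts of members set beside these shares are therefore not a measure of how often members differ.

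The members also differed between the libraries of a single genotype, a comparison that their choice did not use. The deeper library had more normalised reads than the shallower one for 20 of 24 tested members in WT and for 16 of 24 in KO, with median ratios of 1.53 and 1.32, where all tested genes had a median of 1.01 in each genotype. For 14 of the 24 the deeper library was the higher one in both genotypes, which holds for 38.4% of all tested genes. On the log2(normalised reads + 1) scale, the WT values of 7 members and the KO values of 8 spanned 2-fold or more, against 8.73% and 8.27% of all tested genes. The deeper library was higher by 2-fold in both genotypes for 3 members (Sema6c, Plxna2 and Plxnd1), against 2.38% of tested genes, and lower by 2-fold in both for Sema7a, against 0.897%. Among the 8 receptors the medians were 1.76 in WT and 1.78 in KO, and 6 of them were higher in the deeper library of both genotypes, all but Plxna1 and Plxna3. Plxna2 was 7.88-fold higher in the deeper WT library and 2.53-fold in the deeper KO library, and Plxnd1 4.90-fold and 2.48-fold. Sema7a lay at the other end, as given above. Libraries were ranked by depth alone and not matched between genotypes by any label, and what set them apart was not tested.

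**Figure D3:**
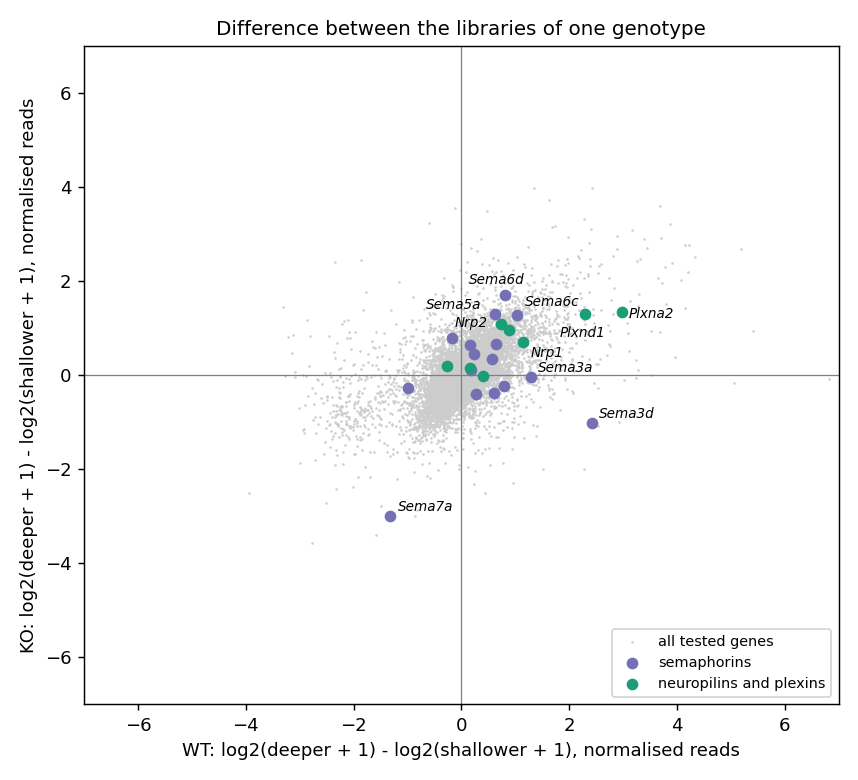
Difference between the deeper and the shallower library on the log2(normalised reads + 1) scale in WT (horizontal) and KO (vertical), with all 11710 tested genes in grey, tested ligands in violet and tested receptors in green; named members are at least 2-fold apart in 1 or both genotypes. Plxna2 and Plxnd1 lie far to the upper right, Sema7a to the lower left and Sema3d to the lower right.

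Levels were compared between genes after division by the length of the longest annotated coding transcript, as mean normalised reads per kb. Sema3a was the highest ligand in WT at 308 (179 to 437 over the libraries) and in KO at 880.1 (867 to 893). Sema3f came next in both, at 225 (175 to 275) and 324 (252 to 397). In WT these ligands overlapped, while in KO every library of Sema3a lay above those of Sema3f. Sema5a went from rank 13 of the 16 tested ligands, at 7.27 per kb, to rank 5, at 109, and Sema6d from rank 8, at 47.4, to the last rank, at 0.505. Neighbours in the middle of the order, such as Sema4c (51.9) and Sema3e (50.4) in WT, did not differ beyond their libraries.

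Nrp2 was the highest receptor per kb in WT at 743 (557 to 929.5) and in KO at 1794 (1147 to 2442). Plxnb2 followed at 597 (563 to 631) and 958 (908 to 1009), within the range of Nrp2 in WT and under it in KO. In WT the ranges of Nrp1 (511), Plxnd1 (463) and Plxna1 (423) overlapped, and Plxnb1 was the lowest tested receptor in both lines (14.6 and 3.27). Summed over all 20 ligands, the level per kb was 1039 in WT (1213 and 865) and 2100 in KO (2178 and 2022), a ratio of 2.02. Summed over all 11 receptors it was 3063 in WT (3948 and 2178) and 4656 in KO (5843 and 3469), a ratio of 1.52. For the receptor sum, the shallower KO library lay below the deeper WT library. Both sums weigh the highest genes most. The largest rises per kb were those of Nrp2, from 743 to 1794, and of Sema3a among the ligands, from 308 to 880.1. Of the 8 tested receptors, 4 had ratios above 1 and 4 below. Of the 16 tested ligands, 12 had ratios above 1 and 4 below. The sums therefore do not describe a rise shared by all members. Nrp1 is annotated with a transcript of 3.60 kb, and a longer true transcript would lower its level per kb.

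**Figure D4:**
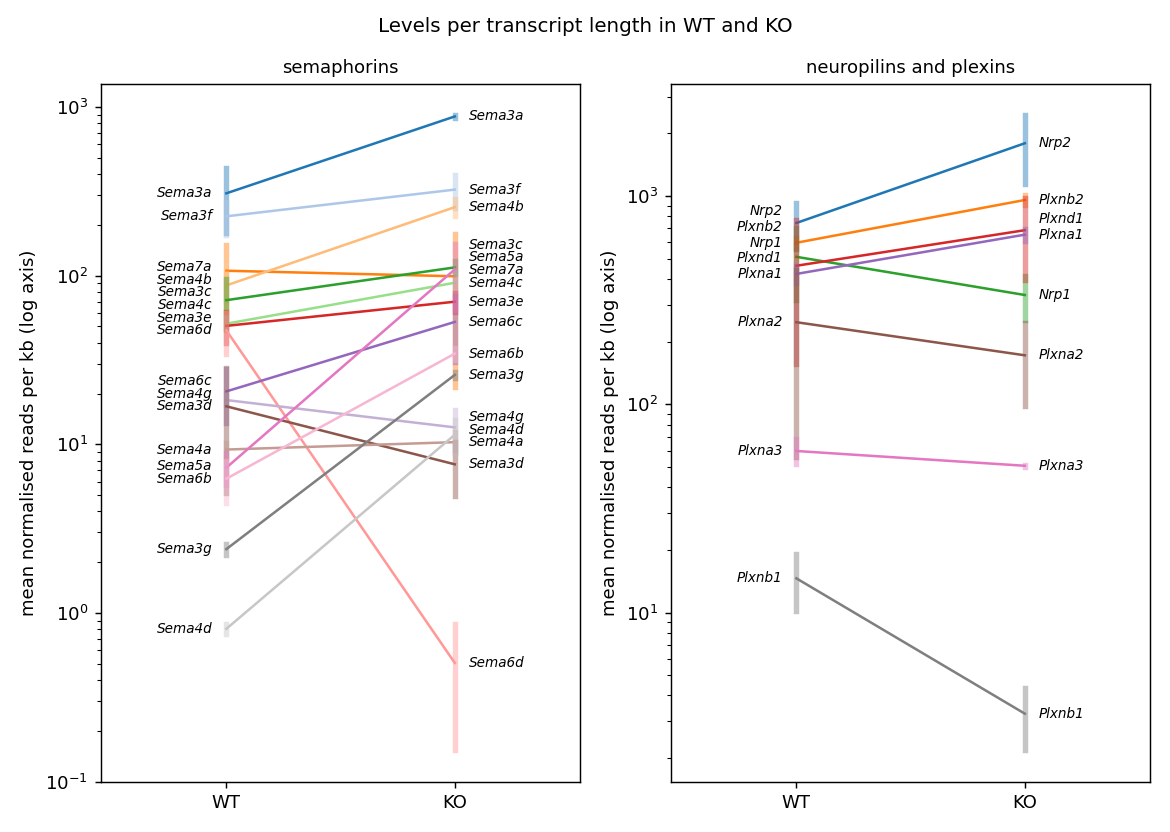
Mean normalised reads per kb of transcript (log axes, which differ between the panels) in WT and KO for the 16 tested ligands (left) and the 8 tested receptors (right); lines join the means and pale bars span the libraries. Sema3a and Nrp2 lead in both lines, Sema5a climbs from 7.27 to 109 and Sema6d drops from 47.4 to 0.505.

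Other genes of the pathway were taken from a list of 52 names, which stand for 51 genes (Arhgap35 and Grlf1 are the same gene). Of these, 39 were tested, and 1 was higher in KO, 5 were lower and 33 were neither, against 8.92% and 8.56% of all tested genes. The median log2 ratio was -0.04. The gene counted as higher was Met, the hepatocyte growth factor receptor, which associates with class B plexins. It had 487 normalised reads in WT (451 and 522) and 2743 in KO (2731 and 2755), a ratio of 5.64. The authors' deposited table gives an adjusted p of 2.53e-09.

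Among the lower genes, 3 had an adjusted p under 0.1 in the authors' deposited table. Dpysl3, of the CRMP family that relays Sema3a signals to microtubules, had 2901 normalised reads in WT (3451 and 2351) and 1.42 in KO, 3 reads in all, and the authors' deposited table gives an adjusted p of 3.69e-29. L1cam, an adhesion molecule that forms part of the Sema3a receptor with Nrp1, had 142 in WT (141 and 142) and 39.6 in KO (40.5 and 38.8), a ratio of 0.280, and the authors' deposited table gives an adjusted p of 0.00978. Mras, of the R-Ras family on which plexins act, had 841 in WT (820.3 and 862) and 143 in KO (160.0 and 126), a ratio of 0.170, and the authors' deposited table gives an adjusted p of 2.02e-08. In each of the 3 the KO libraries lay far below the WT libraries. Farp2, an exchange factor bound by class A plexins, and Itga1, an integrin chain that pairs with Itgb1 to bind Sema7a, had ratios of 0.494 and 0.368, with adjusted p of 0.110 and 0.707 in the authors' deposited table. Farp2 had 428 normalised reads in WT (456 and 399) and 211 in KO (172 and 251), and without the deeper WT or the deeper KO library its ratio was 0.530 or 0.587, which ends the call. Itga1 had 337 in WT (500.3 and 174) and 124 in KO (167 and 80.6). Its ratio was 0.714 without the deeper WT library, which ends the call, 0.248 without the shallower WT library and 0.239 without the deeper KO library. The CRMP gene Dpysl2 (ratio 1.18), the other R-Ras genes Rras (1.32) and Rras2 (0.797), the GTPase gene Rac1 (1.04) and the kinase genes Limk1 (1.01) and Fyn (0.544) reached neither limit. Cfl1 (0.55), Rhoa (0.559) and Rasa1 (1.76) also reached neither limit. The libraries of the genotypes did not overlap for Cfl1, Rhoa, Rasa1, Fyn and Rras. Of all 39 tested pathway genes, 10 had both KO libraries above both WT libraries and 13 had them below, against 30.4% and 28.8% of all tested genes.

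The 3′ UTRs of the members were searched for sites of 18 microRNA families known from fibroblasts, as 7 bases complementary to the seed (bases 2 to 8 of the mature microRNA). The search used the sense strand of the longest 3′ UTR of a coding transcript in GENCODE M21 on GRCm38, which is not the authors' build mm9. The let-7 family is shown because, of the families searched, its share of members with a site was highest relative to its share of all tested genes. This choice was made after the values were seen. The mature sequence is from RefSeq (GRCm38.p6), with its seed in capitals, and below it stand the let-7 sites of the 7 tested members that hold one, with the 7 matching bases in capitals.
let-7a-5p: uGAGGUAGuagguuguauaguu
Sema4b: ttcagtggaggtcagCTACCTCtgc
Nrp2: ctaccttgaggtgtcCTACCTCagt
Sema4c: ttgcacaggcaccagCTACCTCagg
Plxnd1: ccatatcccagaacaCTACCTCatc
Sema3f: caggtccagcccactCTACCTCctt
Plxna2: tctgtgtctgatgttCTACCTCttt
Sema4g: gctcccatccctgtcCTACCTCacc

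These windows lie in 3′ UTR exons at chr7:80225382-80225406 (plus strand) for Sema4b, chr1:62798046-62798070 (plus) for Nrp2, chr1:36549456-36549480 (minus) for Sema4c and chr6:115955367-115955391 (minus) for Plxnd1. Those of Sema3f, Plxna2 and Sema4g lie at chr9:107681784-107681808 (minus), chr1:194815226-194815250 (plus) and chr19:45003048-45003072 (plus). Counted from 1 at the start of the 3′ UTR, the matches of Sema4b and Sema4c begin at bases 62 and 74. Of the members under the minimum, Plxna4, Plxnc1 and Sema4f also held a let-7 match. Sites of Sema6a are not reported here. A let-7 site was present in 7 of the 24 tested members (29.2%) and in 10.7% of the 11322 tested genes with an annotated 3′ UTR. The members' 3′ UTRs were slightly longer, with a median of 1382 bases against 1210, and the shares were not matched on length.

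Of the 7 members with a let-7 site, Sema4b and Nrp2 were higher in KO, 5 were neither and 0 were lower, and their median log2 ratio was 0.57, against 0.63 for the 17 tested members without one. Sema3g and Sema5a, with ratios of 10.8 and 15, had no let-7 site. Sema4b held the most sites per length, 11 sites of 9 families in 1192 bases or 9.23 per kb, where all tested genes had 2.04 per kb and the tested members 2.40. Sema6d, nearly lost in KO, held 12 sites of 8 families in 2461 bases, 4.88 per kb. Nrp1 and Plxnb2 had none of the searched sites, in 3′ UTRs of only 549 and 732 bases. Sites of miR-24 (CTGAGCC) were present in 41.7% of tested members and 19.5% of all tested genes. Sites of miR-17 (GCACTTT) were present in 33.3% of tested members and 15.1% of all tested genes, and those of miR-29 (TGGTGCT) in 4.17% and 16.2%. The only tested member with a miR-29 site was Sema3a. A match is a description of letters and not evidence of binding.

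**Figure D5:**
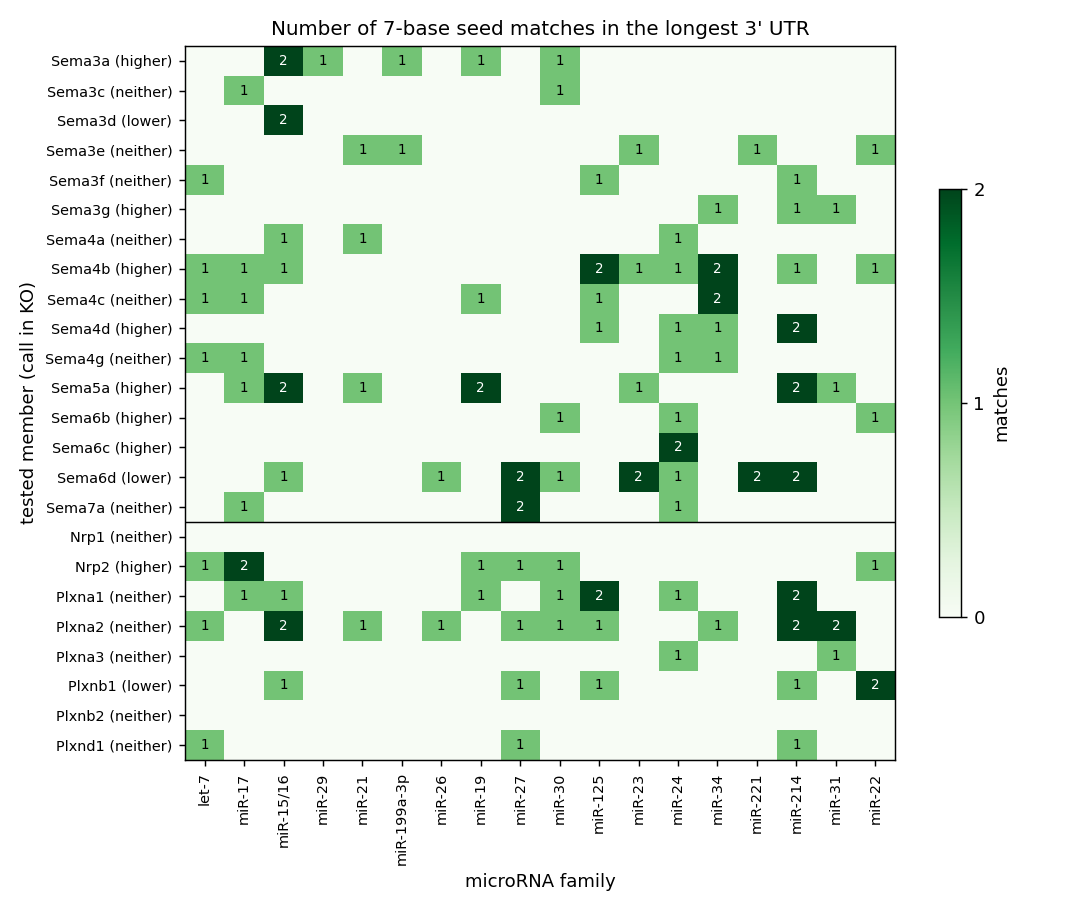
Number of 7-base seed matches per microRNA family (columns) in the 3′ UTR searched for each tested member (rows, with its call in KO in brackets, ligands above the black line and receptors below it). Matches are spread over members that were higher, lower and neither, with 11 in Sema4b, 12 in Sema6d, 13 in Plxna2 and none in Nrp1 and Plxnb2. The 3′ UTRs searched for Nrp1 and Plxnb2 are short, at 549 and 732 bases.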

How the data were processed

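PolyA RNA of 1 WT and 1 KO sample was measured. Per the submitters' processing notes, TopHat 1.4.0, DESeq 1.10.1 and build mm9 were used. The sources used here name neither read counter nor annotation. The authors deposited 1 table: a signal per gene (mean reads divided by size factors), its ratio of KO over WT, the log2 of that ratio, p-values and adjusted p-values. Condition A was taken for WT and condition B for KO, following the order in the title, and all directions rest on this. Whole reads of 2 libraries per genotype were recovered from the deposited means: exactly 1 pair of whole numbers gave each mean (relative tolerance 1e-13) for 100.0% of the 16386 WT and 16350 KO genes above 0. Of 23227 symbols, 5924 had no reads. Because the labels give 1 sample per genotype, the ratio of means is the main result and tests over the recovered libraries are alternatives.

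Counting intervals (95%, Clopper-Pearson), alternatives and limma 3.58.1 were run in Python 3.11.15 and R 4.3.3 and tested on simulated data. limma used log2(normalised reads + 1) with a trended prior. Transcript lengths and 3′ UTRs came from GENCODE M21, matched for all 31 members. Members and lists were chosen with earlier results of these data known. Members past the 2-fold rule or the authors' adjusted p of 0.1, the highest per length and those nearest the limits are described in full. Pathway genes are named when past that adjusted p. Farp2, Itga1 and those with neither call were picked after their values were seen. Alternatives were other minimums, 3-fold, other scalings, each library left out, limma, a pseudocount of 1 and, chosen after seeing the data, pairs of like depth and a block. Some items are not reported here.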

Additional observations from a re-analysis of the deposited data

How the results depend on the processing

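Scaling by TMM factors, a pseudocount of 1 and a minimum of 50 reversed no result, and TMM and the pseudocount changed no member's call. Scaling by total reads moved the ligand median from 0.73 to 0.79 and that of all tested genes to 0.06. With no minimum the ligand median was 0.60, and 5 members and 2 receptors were lower. At 3-fold, 4 members were higher, all ligands, 0 receptors were, and 1 ligand and 3 pathway genes were lower. The authors' adjusted p gave 0 receptors higher (1 at their unadjusted p under 0.05), 1 ligand lower and 3 pathway genes lower. limma gave 5 members and 0 receptors higher (3 receptors at an unadjusted p under 0.05), 1 member (a ligand) and 0 receptors lower (1 at an unadjusted p under 0.05), 2 pathway genes higher and 3 lower, and a ligand median of 0.76.

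The labels number no replicates, so no pairing could be taken from them. When like-depth libraries shared a block, chosen after seeing the data (differences between libraries correlated between genotypes with r = 0.57 across tested genes), limma gave 14 members and 4 receptors higher and 1 ligand and 2 receptors lower, and 7 pathway genes higher and 12 lower, with a ligand median of 0.76. It called 18.5% and 17.7% of all tested genes. In the deeper pair of libraries the medians were 0.95 for ligands and -0.05 for receptors. In the shallower pair the medians were 0.99 for ligands and 0.55 for receptors, 2 receptors were higher, and the log2 ratio of Sema3d was 0.99.

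With each library left out in turn, 6 to 10 members were higher (6 to 8 ligands, 0 to 3 receptors) and 2 to 5 lower (1 to 3 ligands, 1 to 3 receptors). The median was 0.69 to 0.92 for ligands (0.91 and 0.82 without the deeper and the shallower WT library) and -0.29 to 0.63 for receptors (-0.23 without the deeper KO library). Of the pathway genes, 1 to 3 were higher and 5 to 7 lower. Without the deeper WT library the log2 ratios of Sema3d and Plxna2 were 0.56 and 1.63. The cause of these changes was not tested. The planned count-model tests on the recovered reads (edgeR, DESeq2) were not run: count models were kept to tables deposited as counts, although the recovered reads would have allowed them. Few reads limit Sema4d in WT and Sema6d in KO.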
